A study of Sus scrofa with 8 samples.

Results

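The genes described here are 10 components of the m6A pathway: the writers METTL3, WTAP, ZC3H13 and RBM15, the eraser ALKBH5, the readers YTHDF2, HNRNPC, EIF3A and PRRC2A, and PRRC2B, the paralogue of PRRC2A. They were taken from the 5650 genes that carried at least 1 m6A peak in muscle, labelled LDM. Of the 10 genes, 9 were found by the symbol printed in the peak lists. PRRC2B had no symbol there and was found by its identifier, ENSSSCG00000005715, which the gene name table pairs with that symbol. The animals were 2 males of the Jinhua breed, a Chinese pig with more fat within its muscle, and 2 males of the Landrace breed, a Danish pig. All 4 were aged 180 days, and the labels name no treatment. From each animal came an input library and a library enriched with an m6A antibody (IP). The 8 samples fall into the groups Jinhua IP, Jinhua input, Landrace IP and Landrace input, with 2 in each. For each animal 1 list of m6A peaks was analysed, and the study asked how m6A bears on fat deposition within muscle.

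N6-methyladenosine (m6A) is a methyl mark on adenosines inside messenger RNA. A nuclear complex built around METTL3 writes it, demethylases such as ALKBH5 remove it, and reader proteins bind marked RNA and change its splicing, decay or translation. The messenger RNAs of these proteins can carry the mark themselves, and the peaks described here lie on them.

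The lists stated 6433 peaks in 3863 genes for Jinhua 1, 7733 in 4468 for Jinhua 2, 6471 in 3798 for Landrace 1 and 6176 in 3647 for Landrace 2. They hold no read counts, so the depth behind a call is unknown. A gene without a peak may have been too weakly expressed for a call, and fewer expressing cells cannot be told apart from less RNA per cell. Of 14 muscle fibre markers, 11 carried a peak in each Jinhua list and 10 in each Landrace list, while MYH4, TNNT3 and MB had no row. Adipocyte markers were listed as well, 3 of 6 in Jinhua 1, Jinhua 2 and Landrace 1 but 2 of 6 in Landrace 2, with ADIPOQ, FABP4 and LEP absent from all 4. Endothelial markers numbered 3 of 4 in every list, and fibroblast markers 2 and 3 of 4 in Jinhua, against 2 and 2 in Landrace. Macrophage markers numbered 2 of 4 in both Jinhua lists and 3 of 4 in both Landrace lists. What these other cell types contribute to the peaks below was not tested. With 2 animals per breed the exact two-sided permutation test cannot give a p below 0.33. By this test 0 of the 5650 genes had an unadjusted p below 0.05, and 0 passed after Benjamini-Hochberg adjustment.

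The 10 genes together carried 27 and 32 peaks in the Jinhua animals and 25 and 28 in the Landrace animals. Jinhua averaged 29.5 ± 3.54 peaks and Landrace averaged 26.5 ± 2.12 (SD, n = 2 each), and the ranges of the breeds overlapped. Jinhua 2, the longest list, had the most. Per 1000 peaks of the same list the totals were 4.20 and 4.14 in Jinhua against 3.86 and 4.53 in Landrace, and the difference turned from 3 peaks to -0.0309 peaks per 1000. Of the 10 genes, 6 were called, that is carried 1 or more peaks, in all 4 animals, which was true of 43.8% of all genes. METTL3 and WTAP were called in a single list, as were 24.3% of all genes. RBM15 was called in 1 list of each breed (8.32% of all genes) and ZC3H13 in 3 lists (16% of all genes). Of the 10 genes 0 were called in a whole breed while lacking a call in the other breed, as 5.15% of all genes were for Jinhua and 2.42% for Landrace.

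**Figure D1:**
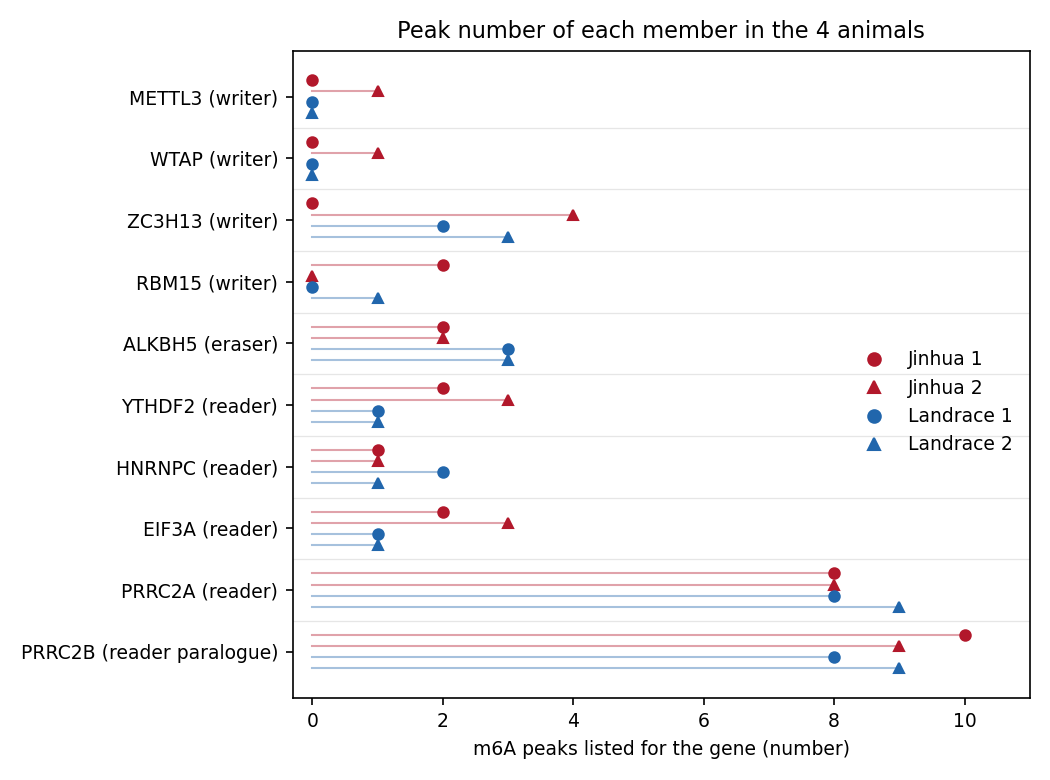
Number of m6A peaks (horizontal axis) listed for each of the 10 genes in each animal, Jinhua in red above Landrace in blue; each point is 1 animal. ALKBH5 has 2 peaks in both Jinhua animals and 3 in both Landrace animals, YTHDF2 and EIF3A have more in both Jinhua animals, and the points of the other genes overlap between breeds.

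By mean peak number the order was PRRC2B with 9, PRRC2A with 8.25, ALKBH5 with 2.5, ZC3H13 with 2.25, YTHDF2 and EIF3A with 1.75 each, HNRNPC with 1.25, RBM15 with 0.75, and METTL3 and WTAP with 0.25 each. The lists do not give transcript lengths, so this order is not per length. Only the step between PRRC2A, at 8 to 9 peaks, and ALKBH5, at 2 to 3, parted neighbours whose values did not overlap over the 4 animals. Among all genes 5 had a higher mean than PRRC2B and 7 a higher mean than PRRC2A.

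The writers were the least regularly called members. METTL3 (ENSSSCG00000024445), the catalytic subunit, had 0 and 1 peaks in Jinhua 1 and Jinhua 2 and 0 in both Landrace animals. Its single peak was coding and spanned bases 722 to 877 of transcript ENSSSCT00000026886. WTAP (ENSSSCG00000004050), the adaptor that holds the complex in nuclear speckles, showed the same numbers, with its peak at bases 744 to 914 of ENSSSCT00000004478, also coding. Both calls thus rested on the list of Jinhua 2, which called 79.1% of all genes, against 68.4% in Jinhua 1, 67.2% in Landrace 1 and 64.5% in Landrace 2.

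ZC3H13 (ENSSSCG00000009414), a zinc finger protein that anchors the complex in the nucleus, had 0 and 4 peaks in the Jinhua animals, against 2 and 3 in the Landrace animals. The 2 Jinhua values lay on either side of both Landrace values. One stretch carried peaks in all 3 animals with a call, coding wherever a location is given. On ENSSSCT00000010315 the peaks covered bases 2425 to 2788 in Jinhua 2, as a pair that adjoined without a gap at base 2597. In Landrace 1 they covered 2411 to 2774, again as an adjoining pair, and in Landrace 2 they covered 2401 to 2500 and 2551 to 2783, the second of these being another adjoining pair. The merged stretch ran from base 2401 to 2788, and 300 of its 388 bases (77.3%) were covered in all 3 animals. The peak number of ZC3H13 therefore partly counts how one stretch was divided: with adjoining peaks counted as 1 it had 0 and 3 stretches in Jinhua and 1 and 2 in Landrace. The other peaks of Jinhua 2, at 3021 to 3150 and 4243 to 4405, had no counterpart in another animal.

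RBM15 (ENSSSCG00000006809), an RNA-binding protein that guides the complex to its targets, had 2 and 0 peaks in Jinhua, against 0 and 1 in Landrace. On ENSSSCT00000007458 the peak at 946 to 1170 in Jinhua 1 met that at 950 to 1150 in Landrace 2, with 201 of 225 bases in common (89.3%). The further peak of Jinhua 1 lay at 1906 to 2078, and all RBM15 peaks were coding. The 2 animals that shared the RBM15 peak were of different breeds.

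**Figure D2:**
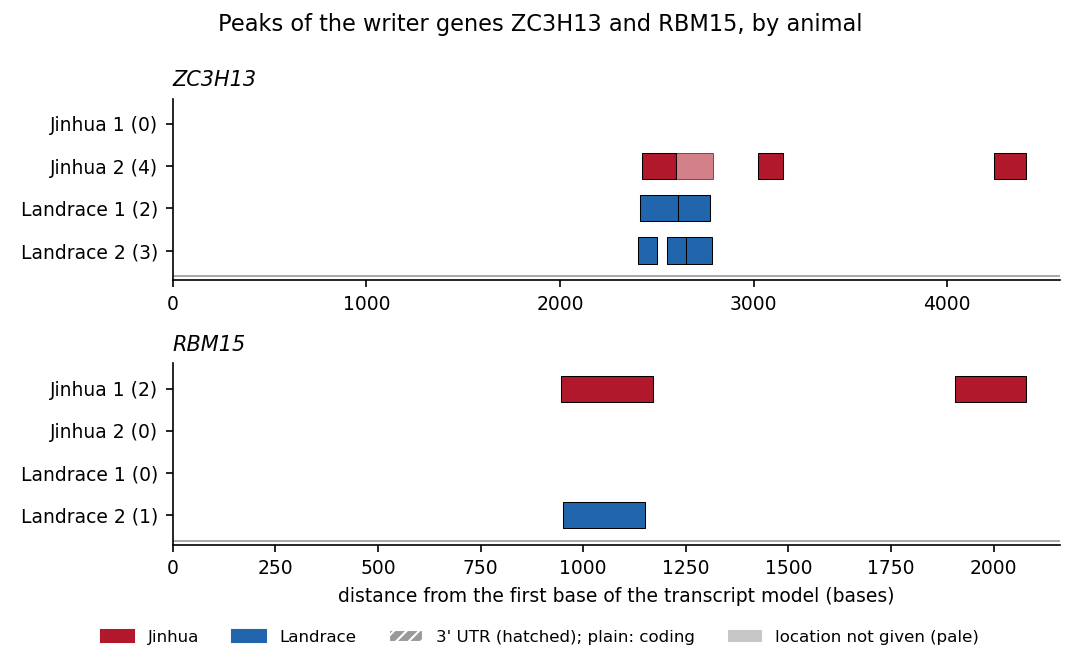
Position of each listed peak of ZC3H13 and RBM15 along the transcript, in bases from its first base (horizontal axis), with 1 row per animal, the peak number in brackets and pale bars where no location is given; the axis ends near the last peak, not at the end of the transcript. The ZC3H13 peaks between bases 2401 and 2788 recur in 3 animals, and the RBM15 peak near base 950 recurs in Jinhua 1 and Landrace 2.

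The eraser ALKBH5 (ENSSSCG00000026771), an oxygenase that removes the methyl group, had 2 and 2 peaks in Jinhua, against 3 and 3 in Landrace. The numbers did not overlap, as for 4.85% of all genes in this direction and 4.77% of genes called in all 4 lists. The difference was -1 peak (exact permutation p = 0.33, the smallest the design allows, adjusted p = 1 over 5650 genes). It had the same direction in all 9 alternative settings tried, but several of them could not change it. With equal numbers within each breed, leaving out any animal gives the same difference. Per 1000 peaks of the same list the difference was -0.19, and with peaks of at least 150 bases it was -1. The first ALKBH5 peak covered bases 97 to 250 of ENSSSCT00000024532 in all 4 animals, with the same start and end in each. Of 2123 regions with 1 peak in each animal 35 shared both ends in this way (1.65%). The second peak, also coding, spanned 772 to 941 and 764 to 941 in Jinhua, against 771 to 941 and 765 to 933 in Landrace. These coding peaks did not part the breeds, with 162 of 178 bases (91.01%) common to all 4 animals for the second. The third peak, in the 3' UTR, was listed in Landrace alone, at 2225 to 2379 in Landrace 1 and 2279 to 2433 in Landrace 2. The 2 Landrace peaks were each 155 bases wide and shared 101 of 209 bases (48.3%).

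YTHDF2 (ENSSSCG00000027686), the cytoplasmic reader that brings the CCR4-NOT deadenylase to marked messenger RNA, had 2 and 3 peaks in Jinhua, against 1 and 1 in Landrace. EIF3A (ENSSSCG00000010679), the largest subunit of the translation initiation factor eIF3, which has been reported to bind m6A, had the same numbers in each animal. Both Jinhua values exceeded both Landrace values for these 2 genes, as they did for 9.36% of all genes and 7.96% of genes called in all 4 lists. The difference was 1.5 peaks for each gene (exact permutation p = 0.33, adjusted p = 1). Among peaks of at least 150 bases YTHDF2 had 1 in every animal, and EIF3A had 2 and 2 in Jinhua, against 1 and 1 in Landrace.

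In each of these genes 1 coding region was shared by all 4 animals and another was held by both Jinhua animals alone. For YTHDF2 the second lay at bases 1761 to 1885 of ENSSSCT00000027438 in Jinhua 1 and 1741 to 1885 in Jinhua 2, and for EIF3A at 3821 to 3970 of ENSSSCT00000011680 in Jinhua 1 and 3831 to 3970 in Jinhua 2. In both genes the 2 Jinhua peaks ended at the same base. Regions of this kind were 5.59% of all 9414 regions, and Landrace-only regions were 3.38%. Within genes called in all 4 lists, as these 2 were, the shares were 3.50% and 2.86% of 4888 regions. A further peak was listed in Jinhua 2 alone, at 1281 to 1409 in YTHDF2 and at 4001 to 4151 in EIF3A.

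The shared peaks of YTHDF2 and EIF3A lay further along the transcript in Jinhua. In YTHDF2 the shared peak covered 201 to 364 and 201 to 368 in Jinhua, against 170 to 327 and 168 to 340 in Landrace, so that its start was 32 bases and its end 32.5 bases further along on average. In EIF3A it covered 3157 to 3391 and 3155 to 3364 in Jinhua, against 3149 to 3326 and 3149 to 3329 in Landrace, which moved the start by 7 bases and the end by 50. In both genes neither the starts nor the ends overlapped between breeds. This was looked at after the positions had been seen. Of the 2123 regions with 1 peak per animal, 16.1% had start and end further along in both Jinhua animals, against 3.3% in both Landrace animals, and the centre of the peak lay a median of 4.5 bases further along in Jinhua. The lists do not say how a peak's edges were set, and the source of this shift was not tested.

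HNRNPC (ENSSSCG00000028640), a nuclear RNA-binding protein whose sites m6A can expose, had 1 peak in each Jinhua animal, against 2 and 1 in Landrace. On ENSSSCT00000023644 it was listed at 1001 to 1129 in Jinhua 1 and 1101 to 1200 in Jinhua 2, against 971 to 1120 in Landrace 1 and 1001 to 1128 in Landrace 2. These peaks merged into 1 region, but only 20 of its 230 bases (8.70%) were common to all 4, because the peak of Jinhua 2 met only the ends of the others. That peak was annotated as 3' UTR and the other 3 as coding, so the region straddled the annotated end of the coding sequence. Over all genes the median share of a region common to all 4 animals was 68.9%, and 3.02% of such regions had less than 10% in common. The second peak of Landrace 1, at 791 to 890, was listed in no other animal.

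**Figure D3:**
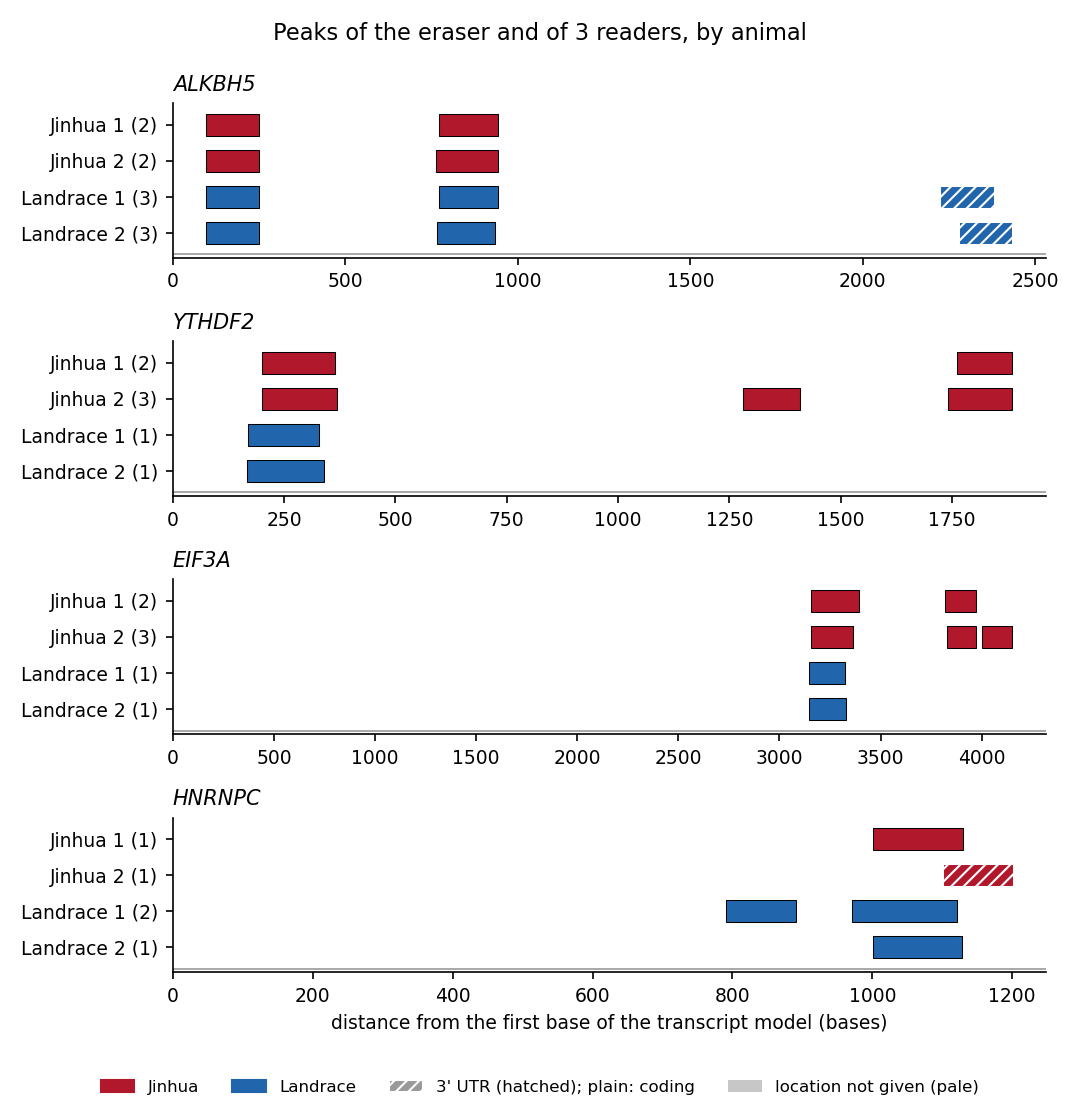
Position of each listed peak of ALKBH5, YTHDF2, EIF3A and HNRNPC along the transcript, in bases from its first base (horizontal axis), with 1 row per animal, the peak number in brackets and 3' UTR peaks hatched; the axis ends near the last peak. The first ALKBH5 peak is in the same place in every row, its 3' UTR peak is in the Landrace rows alone, and the last YTHDF2 and EIF3A peaks are in the Jinhua rows alone.

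PRRC2A (ENSSSCG00000001409), a reader reported to stabilise marked messenger RNA, had 8 peaks in each Jinhua animal, against 8 and 9 in Landrace. PRRC2B, whose own part in reading m6A is less settled, had 10 and 9 in Jinhua, against 8 and 9 in Landrace. Neither gene parted the breeds (exact permutation p = 1 for PRRC2A and 0.667 for PRRC2B, adjusted p = 1 for both). No other gene had the 4 peak numbers of either. Jinhua 1 and Landrace 2 gave the position of every peak, whereas Jinhua 2 and Landrace 1 gave 4 positions for each gene, so regions were compared in full between Jinhua 1 and Landrace 2.

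Peaks of PRRC2A lay along its coding sequence, from base 501 to 4581 of ENSSSCT00000035041 in Jinhua 1 and from 521 to 4568 in Landrace 2. Of the 8 peaks of Jinhua 1, 7 overlapped a Landrace 2 peak, and 7 of the 9 peaks of Landrace 2 overlapped one of Jinhua 1. Merged, they formed 7 stretches, of which 6 held peaks of both animals and 1, at 764 to 870, was Landrace 2 alone. The 4 positions given for Landrace 1 included one at 762 to 900, overlapping it. The longest stretch over the 4 lists ran from 3878 to 4617 and held peaks of every animal. PRRC2B carried 7 coding peaks and 3 peaks in the 3' UTR in Jinhua 1, and 7 coding and 2 in the 3' UTR in Landrace 2. Its last peak lay at 10071 to 10170 of ENSSSCT00000006285 in Jinhua 1, against 10085 to 10190 in Landrace 1 and 10091 to 10190 in Landrace 2. The peak at 6671 to 6932 in Jinhua 1 matched one at 6671 to 6920 in Landrace 2, and that at 7521 to 7727 in Jinhua 1 met no position given for another animal. For each gene all 4 positions given in Jinhua 2 and all 4 in Landrace 1 overlapped a peak of Jinhua 1 or Landrace 2. The Jaccard index is the bases in peaks of both lists over the bases in peaks of either. Between Jinhua 1 and Landrace 2 it came to 0.563 for PRRC2A and 0.682 for PRRC2B, against 0.446 for genes with at most 4 peaks. The last value also counts genes called in only 1 of the 2 lists, whose bases are never in both.

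**Figure D4:**
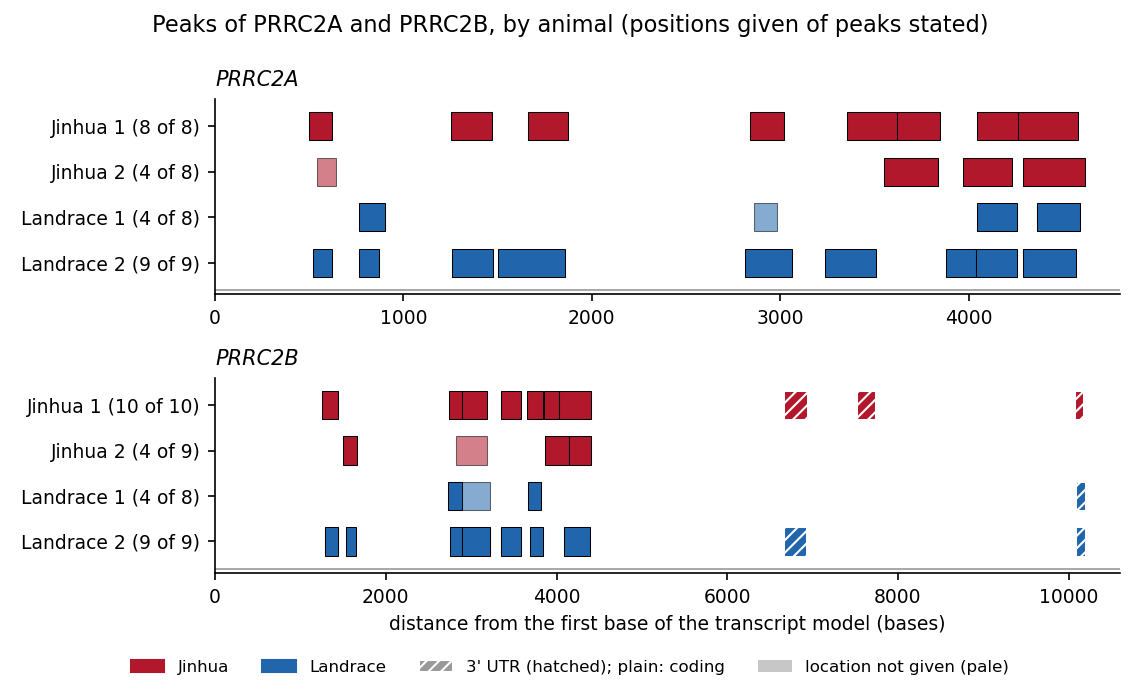
Position of the listed peaks of PRRC2A and PRRC2B along the transcript, in bases from its first base (horizontal axis), with 1 row per animal; brackets give the positions listed of the peaks stated, 3' UTR peaks are hatched, and bars are pale where no location is given. The peaks of Jinhua 1 and Landrace 2 fall in largely the same places, and the 4 positions given for Jinhua 2 and Landrace 1 fall among them.

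Adjoining peaks, with no base between them, were frequent in these long rows. They made up 16 of 52 positions of PRRC2A and PRRC2B (30.8%), against 7.76% of all 26264 listed positions. Of the other 8 genes they made up 6 of 43 positions (13.95%), all of them in ZC3H13. The share over all genes includes genes with a lone peak, which cannot adjoin another. It is therefore not a like baseline for genes with many peaks. The median peak width was 215 bases in PRRC2A and PRRC2B, 156 in the other 8 and 157 over all genes, and no listed peak was narrower than 100 bases.

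Peaks of the set lay mainly in coding sequence. For the 7 genes with at most 3 peaks in each list, whose location is given in full, coding peaks were 9 of 9 in Jinhua 1 and 10 of 11 in Jinhua 2, against 6 of 7 in each Landrace animal. The shares were 100% (95% Wilson interval 70.1 to 100) and 90.9% (62.3 to 98.4) in Jinhua, and 85.7% (48.7 to 97.4) in each Landrace animal. Over all such genes the shares were 67.3% and 70.6% in Jinhua, against 69.8% in each Landrace list. The remaining peaks were the ALKBH5 and HNRNPC peaks in the 3' UTR described above. Of the peaks of the 10 genes with a location, 0 were annotated in a 5' UTR, which held 6.31% and 6.71% of all located peaks in Jinhua, against 7.87% and 6.38% in Landrace. These intervals reflect only the counting of peaks, and peaks of 1 gene are not independent.

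The 8 genes with at most 4 peaks in each list gave 18 regions after peaks that overlapped or adjoined were merged. A peak of all 4 animals was held by 5 of them (27.8%), against 27.1% of regions of all genes. Among genes called in all 4 lists, 5 of the set's 11 regions (45.5%) held one, against 52.2% over all such genes. The Jinhua-only regions of YTHDF2 and EIF3A and the Landrace-only region of ALKBH5 made 2 and 1 of the 18, and 8 regions (44.4%) were listed in 1 animal, against 39.3% over all genes. Of those 8, 6 were of Jinhua 2, the longest list with 7733 peaks. The same share over all genes is not given here.

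Base overlap of these 8 genes was highest between the Landrace animals. Between the Jinhua animals the Jaccard index was 0.342, and between the Landrace animals it was 0.684. Across breeds Jinhua 1 reached 0.335 with Landrace 1 and 0.465 with Landrace 2, while Jinhua 2 reached 0.356 and 0.339. Over all genes the Jinhua and Landrace pairs had 0.445 and 0.463. The mean within breeds, 0.513, exceeded that between breeds, 0.373, by 0.140. Over all genes these means were 0.454 and 0.409, with a difference of 0.0448. Across breeds over all genes, Jinhua 1 had 0.426 with Landrace 1 and 0.446 with Landrace 2, while Jinhua 2 had 0.379 and 0.386. The value of 0.446 lay just above that of the Jinhua pair, 0.445. For the 8 genes the Jinhua pair lay within the range of the 4 between-breed pairs, above 2 of them and below the other 2. Without Landrace 1 the difference was -0.0597 and without Landrace 2 it was -0.00307, so the difference of 0.140 rested on the Landrace pair.

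**Figure D5:**
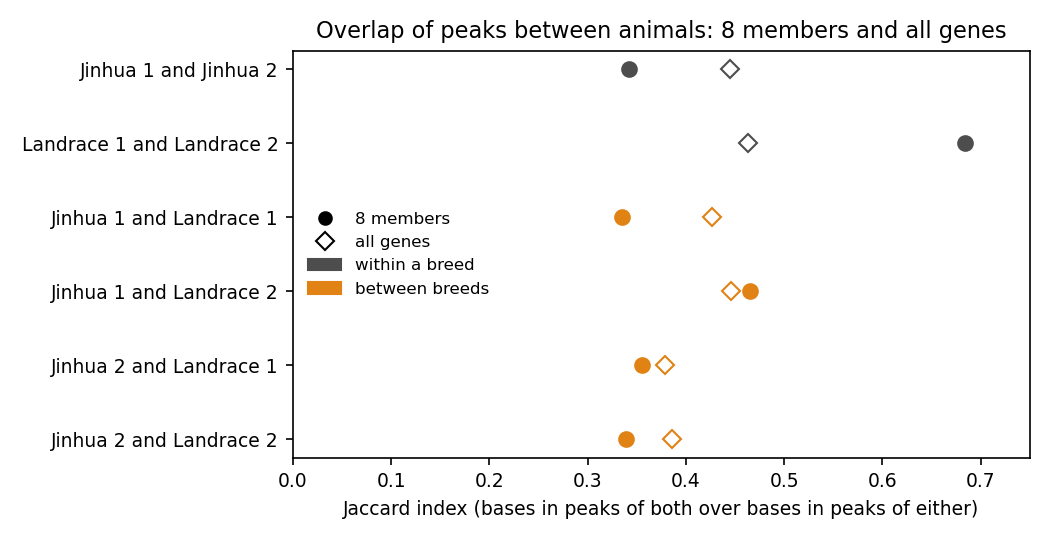
Jaccard index of bases in peaks (horizontal axis) for the 6 pairs of animals, as filled circles for the 8 genes with at most 4 peaks in each list and as open diamonds for all such genes; grey marks pairs of 1 breed and orange pairs of different breeds. The 8 genes stand at 0.684 for the Landrace pair and between 0.335 and 0.465 for the other 5 pairs.

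Other genes with the same 4 peak numbers were counted for members called in all 4 lists. Of genes called in all 4 lists, 0.69% had the numbers of ALKBH5, 0.44% those of YTHDF2 and EIF3A, and 2.59% those of HNRNPC. For ALKBH5 there were 16 others, of which PRSS23, BTG2 and MARCKS covered the most bases. YTHDF2 and EIF3A had each other and 9 more, including KDM3B, CNTFR and PPP2R5C. HNRNPC, with a second peak in Landrace 1 alone, shared its numbers with 63 genes, including EXT2, WSB2 and SOX7. The likeness is equality of peak numbers over 4 animals.

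Around the set, 52 further genes of the pathway were looked up by symbol. Of these 23 carried a peak and 13 did so in all 4 animals, with a median of 1 peak per animal over the called genes, the same as over all genes. Other writers had 2 of 9 symbols called. RBM15B, the paralogue of RBM15, had 1 peak in Landrace 1 alone, at bases 1 to 110 of its transcript. PCIF1, which methylates the first adenosine next to the cap, had 2 and 2 peaks in Jinhua, against 3 and 1 in Landrace. The demethylase FTO and the writer subunit METTL14 had no row under their symbols.

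Other readers had 6 of 16 symbols called and 5 in all 4 animals. Of the fragile X family, FXR1 had 1 peak in every animal, and FXR2 had 4 and 5 in Jinhua, against 3 and 4 in Landrace. ELAVL1, an RNA-stabilising protein, had 2 and 1 in Jinhua and 1 in each Landrace animal. PRRC2C, the other paralogue of PRRC2A, had 3 and 5 peaks in Jinhua, against 4 and 1 in Landrace, fewer in every animal than PRRC2A or PRRC2B. YTHDF1, YTHDF3, YTHDC1 and YTHDC2 had no row under their symbols, so YTHDF2 was the single YTH-domain reader listed by symbol, beside 660 identifiers with no symbol.

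Of the other eIF3 subunits 6 of 12 were called. EIF3H had 2 peaks and EIF3I, EIF3J and EIF3L had 1 in every animal. EIF3D, which can itself bind the cap, had 2 and 2 peaks in Jinhua and was not called in Landrace. Only the peaks at 1511 to 1654 of ENSSSCT00000000147 in Jinhua 1 and 1561 to 1665 in Jinhua 2 overlapped between the 2 animals. Of the CCR4-NOT deadenylase, the partner of YTHDF2, 6 of 11 symbols were called, and CNOT9 and CNOT11 were called in all 4 animals. CNOT1, the scaffold, had 1 peak in Jinhua 2 alone.

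Genes that supply and clear S-adenosylmethionine, the methyl donor, were all called, but only MAT2A in all 4 animals. MAT2A, which makes it in muscle and most other tissues, had 1 and 1 peaks in Jinhua, against 2 and 2 in Landrace. Its additional peak lay at bases 1342 to 1499 of ENSSSCT00000031931 in Landrace 1, annotated as 3' UTR, and at 1187 to 1363 in Landrace 2, annotated as coding. AHCY, which hydrolyses the product of methylation, had 1 and 1 peaks in Jinhua and was not called in Landrace. Its peaks were in the 3' UTR, at 1321 to 1466 of ENSSSCT00000007963 in Jinhua 1 and 1301 to 1469 in Jinhua 2. MAT2B did not part the breeds, with 0 and 1 peaks in Jinhua, against 1 and 0 in Landrace. Among the 52 genes both Jinhua values thus exceeded both Landrace values for EIF3D and AHCY, and the reverse held for MAT2A alone. These are 2 and 1 of 23 called genes, beside 9.36% and 4.85% of all genes (exact permutation p = 0.33 and adjusted p = 1 for each of the 3).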

How the data were processed

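Per the labels' protocols, the authors isolated mRNA from TRIzol-extracted RNA, sheared it by sonication and captured part of it with an m6A antibody before stranded library preparation. The submitters' processing notes list 1 tool, TopHat2 (version 2.0.14), beside susScr3 and Sscrofa10.2 as builds. How peaks were called, and at which threshold, is not given in the sources used here. Each animal has 1 deposited list. Per the file headers it gives each gene's number of peaks and each peak's start, end and location on a transcript, which is not a genome position. Jinhua 2 and Landrace 1 give at most 4 positions and 3 locations per gene, so regions used the 5422 genes with at most 4 peaks in each list and locations the 5132 with at most 3. Symbols came from the lists, then from the gene name table. Breed means were compared by exact permutation over all 5650 genes with Benjamini-Hochberg adjustment (Python 3.11.15, NumPy 2.4.6, SciPy 1.17.1). The labels describe separate males. No test is given over the set as a whole.

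All 10 genes are named. For those called in all 4 lists with unequal peak numbers, up to 3 genes with the same numbers are named, by bases covered. The genes and lists were chosen with earlier results of these data known, and single genes of the related lists were named after their values were seen. Steps were tested on simulated data, with planted differences in peak number far larger than those of the 10 genes. That checks the steps and not how they behave at small differences. No sequence is printed, since no transcript or genome sequence was used here.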

Additional observations from a re-analysis of the deposited data

How the results depend on the processing

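The lists give neither enrichment nor depth, so no stricter peak threshold could be tried. The alternatives with peaks of at least 150 bases, adjoining peaks as 1 and peak edges without 1 animal were added after seeing the data. As no peak was narrower than 100 bases, that minimum changed nothing. It could not be applied to PRRC2A and PRRC2B, whose positions are incomplete.

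Deviations of the animals numbered 1 from their breed means had a correlation of -0.0227 between breeds, over 5650 genes. With 2 pairs of animals, this value cannot show whether the replicate numbers pair them. With the number as a replicate block the total difference was again 3 peaks, since a block leaves a difference of means unchanged. Where the values of the breeds do not overlap, leaving out 1 animal cannot reverse a difference, and neither can the block. YTHDF2, which is of this kind, kept its direction except with peaks of at least 150 bases, where its difference was 0. ALKBH5 and EIF3A, also of this kind, kept their direction in every setting. PRRC2B did too, but its difference of 1 peak ran from 0.5 (without Jinhua 1 or Landrace 1) to 1.5 with 1 animal left out, and per 1000 peaks it was 0.012. ZC3H13, at -0.5 peaks, ranged from -2.5 to 1.5 with 1 animal left out (reversed without Jinhua 1), and reversed to 0.5 with peaks of at least 150 bases. RBM15, at 0.5, reversed to -0.5 without Jinhua 1. The count of genes with both Jinhua values above was 2, ranged from 2 to 5 with 1 animal left out (5 without Jinhua 1, 4 without Jinhua 2), and was 1 with peaks of at least 150 bases. The reverse count was 1 and ranged from 1 to 2 with 1 animal left out (2 without Jinhua 2, Landrace 1 or Landrace 2). Per 1000 peaks it was 2, HNRNPC being added. HNRNPC then had 0.155 and 0.129 in Jinhua, against 0.309 and 0.162 in Landrace. With 1 HNRNPC peak each, Jinhua 1 and Landrace 2 were set apart only by the lengths of their lists, 6433 and 6176 peaks. The matching share of all genes at this scaling is not given here. The total difference ranged from 0.5 to 5.5 with 1 animal left out and reversed to -0.0309 per 1000 peaks. Of the 10 genes 7 and 9 were called in Jinhua, against 7 and 8 in Landrace. This number differed by 0.5, from -0.5 without Jinhua 2 to 1.5 without Jinhua 1. Of all genes 68.4% and 79.1% were called in Jinhua, against 67.2% and 64.5% in Landrace. Jinhua-only regions ranged from 2 to 8 (8 without Jinhua 1). Landrace-only regions ranged from 1 to 2 (2 without Jinhua 2 or Landrace 2). They were 2 with the positions given for PRRC2A and PRRC2B added. Those positions are incomplete in Jinhua 2 and Landrace 1, so an unlisted Jinhua 2 peak could overlap the added region. Regions of all 4 numbered 5 to 6 with 1 animal left out. They numbered 4 where peaks had to share at least 0.5 of the shorter peak, and 7 with the positions given for PRRC2A and PRRC2B. The coding share differed by 9.74 points, from 5.19 to 14.3, and by 3.97 over all peaks with a location. The 3' UTR share differed by -9.74 points, from -14.3 to -5.19, and by -3.97. The overlap difference of 0.140 ranged from -0.0597 to 0.337. Regions further along in Jinhua numbered 2, and 2 to 3 with 1 animal left out. With a single animal left in a breed, counts grow by construction.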

Other observations

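Peaks shared by all 4 animals tended to lie slightly further along the transcript in Jinhua than in Landrace over the whole of the lists. Over the 2123 regions with 1 peak per animal, the centre was further along in the Jinhua mean in 67.5% of regions and less far in 29.96%. The median distance of the centre from the mean of the 4 animals was 1.88 bases in Jinhua 1 and 2.12 in Jinhua 2, against -3.5 in Landrace 1 and -0.625 in Landrace 2. The ends moved more than the starts, with median differences of 5.5 and 2 bases. For the ends the median distance was 2.75 and 2 bases in Jinhua, against -3.5 and -0.75 in Landrace. For the starts it was 0 and 0.5 in Jinhua, against -2.25 in Landrace 1 and 0 in Landrace 2. By the starts Landrace 2 thus did not differ from Jinhua 1. The shift was noticed in YTHDF2 and EIF3A and then measured over all genes. Whether it comes from the libraries or from the animals was not tested.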
